A study of Mus musculus with 157 samples.

Results

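Early thymic lymphomas of Cdc20 mutant mice, with no sorted population named, were compared with sorted thymocytes. These were the earliest population, from non-tumoral thymus of mice of the same genotype. The samples were taken by their labels: genotype RERT2-Cdc20(D/AAA), early tumour with no sorted population named (7 libraries), against DN1 cells from non-tumoral thymus (9 libraries, of which 1 with 21199 counts was left out). The 15 libraries compared came from 1 sequencing table of a series of 157 bulk RNA-seq libraries. Both groups carry the RERT2 driver and both Cdc20 alleles, D and AAA, so the comparison is of tumour with DN1 cells and not of genotypes. Per the labels' protocols a tumour sample came from many more cells than a sorted sample, whose cells were lysed directly, so cell input and sorting cannot be told apart from the tumour state. The labels give no ages and no stage at which a tumour counts as early, and they do not say which libraries share a mouse. P-values therefore measure the spread between these libraries, which may be technical.

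Thymocytes pass through double negative (DN) stages that lack CD4 and CD8. DN1 cells, marked by CD44 without CD25 (Il2ra), include early progenitors but also innate-like T cells that lack both coreceptors, such as natural killer T (NKT) cells, whose receptor uses Trav11 with Traj18 and often Trbv13-2. DN3 cells carry CD25, Rag1 and the pre-T cell receptor chain Ptcra, DN4 cells divide after the pre-receptor signal, and double positive (DP) cells then carry CD4 and CD8. Cdc20 activates the anaphase-promoting complex in mitosis, and the AAA form is known in mice as a mutant that the spindle checkpoint protein Mad2 cannot hold.

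Total counts per library were 3243202 to 4561927 in the tumours, against 3565763 to 9262021 in DN1. DN1 replicates 7 and 9, with 3694246 and 3565763 counts, had the depth of the tumours, and the other 6 DN1 libraries had 7089455 or more. The DN1 label was checked against markers, with levels in CPM (counts relative to the scaled library total) set over all RERT2 D/AAA libraries of the table. The DN1 libraries had 144 to 298 CPM of Cd44 and 1.92 to 15.7 CPM of Il2ra, against 1.37 ± 1.49 and 495 ± 144 CPM in the 5 DN3 libraries (mean ± SD). Kit, the stem cell factor receptor of early progenitors, was low in DN1 at 8.65 ± 6.31 CPM (SD, n = 8), below the 28.6 ± 10.8 CPM of DN3 (n = 5). The natural killer and NKT genes Nkg7, Ccl5 and Zbtb16 averaged 2269, 2278 and 68.7 CPM in DN1, against 61.0, 1.78 and 0.590 CPM in DN3. Cd44 without Il2ra is the surface pattern of DN1, but these libraries were rich in RNA of innate-like T cells and low in Kit, so the label is used here as the name of a sort and not of progenitors.

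Cdc20, the targeted gene, on chromosome 4 (GRCm38, 118432901 to 118437352), had 20.5, 166, 284, 37.4, 12.2, 6.12 and 13.6 CPM (scaled over the 15 libraries, as below unless stated) in tumours 1 to 7, against 2.27, 16.8, 13.4, 13.9, 28.1, 21.7, 19.4 and 21.3 CPM in DN1 replicates 1 to 7 and 9. Tumours 2 and 3 stood above every DN1 library, and 4 of the other 5 tumours lay inside the DN1 range of 2.27 to 28.1 CPM, with tumour 4 above it. Sorted non-tumoral DN3 and DN4 cells of the same genotype were also high. Scaled over all RERT2 D/AAA libraries, tumour 2 was at 175 CPM, inside the 152 to 296 CPM of DN3. On that scale tumour 3 was at 285 CPM, inside the 165 to 337 CPM of DN4. The fitted difference between the tumours and DN1 was 2.17 ± 0.76 (SE) on the log2 scale. With an edgeR adjusted p of 0.151, it did not pass the threshold of 0.05. Without tumours 2 and 3, a choice made after the values were seen, it was 0.07 ± 0.47 with an edgeR adjusted p of 0.966. With limma voom, which gives divergent libraries less weight, it was 0.30 over all 7 tumours. A gene count cannot tell the AAA from the D allele. Trp53, the tumour suppressor p53, had a lowest, median and highest level of 238, 280.2 and 344 CPM in the 7 tumours, against 249, 309.7 and 378 CPM in the 8 DN1 libraries, and the groups overlapped (log2 difference -0.12 ± 0.13, edgeR adjusted p 0.668). Myc, a growth-promoting transcription factor, had 212, 342, 411, 182, 177, 171 and 178 CPM in tumours 1 to 7, against a range of 141 to 287 CPM in DN1. Only tumours 2 and 3 lay outside that range, and the difference over all 7 tumours was 0.11 ± 0.22 (SE) on the log2 scale, with an edgeR adjusted p of 0.824. Scaled over all RERT2 D/AAA libraries, Myc was at 362 CPM in tumour 2, below the 429 to 511 CPM of DN3. In tumour 3 it was at 413 CPM, inside the 298 to 463 CPM of DN4.

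The 7 tumours did not form 1 kind of sample. The Spearman correlation of each library's log2 CPM with the mean of sorted RERT2 D/AAA populations was taken over 9590 genes of at least 10 CPM, as a description. Tumours 1, 4, 5, 6 and 7 were closest to DN1, with correlations of 0.928, 0.917, 0.912, 0.913 and 0.940, and their correlations with the DN3, DN4 and DP means and with the mean of early tumours sorted as DP lay between 0.587 and 0.649. The DN1 libraries, each set against the mean of the other 7, had 0.893 to 0.957, so these 5 tumours lay inside the DN1 range. Its low end came from DN1 replicates 9 and 7 (0.893 and 0.910), and the other DN1 libraries had 0.931 to 0.957. Tumours 1, 4, 5 and 6 were below those other libraries, and tumour 7 was among them. Tumour 2 was closest to DN3 (0.938, against 0.578 with DN1). Tumour 3 was closest to DN4 (0.943, against 0.612 with DN1). Since the tumours were not sorted, a mixture of cell types and a single population with this profile cannot be told apart, nor can fewer cells of a type and less RNA per cell.

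**Figure D1:**
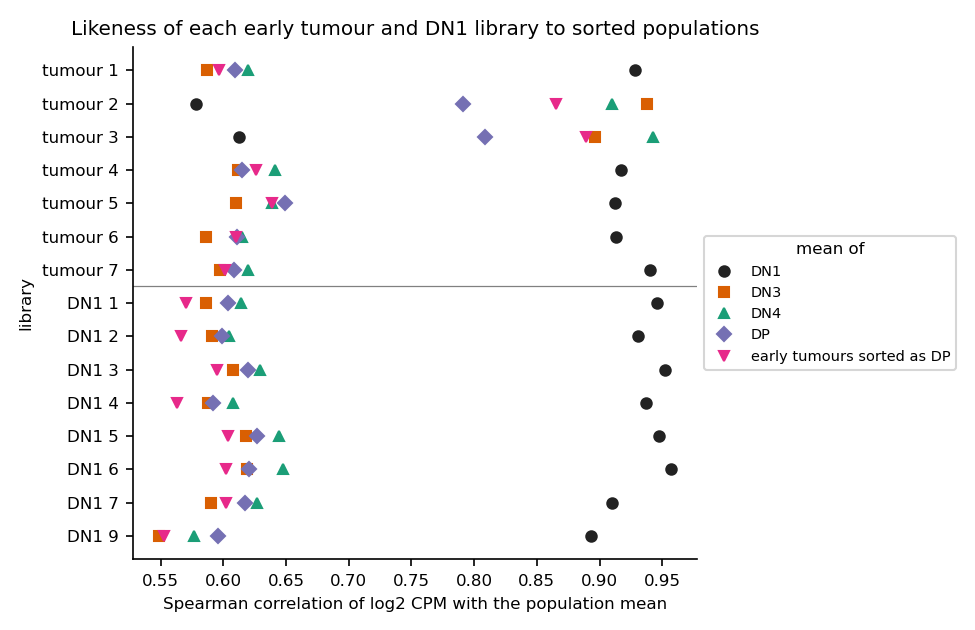
Spearman correlation of log2 CPM of each of the 7 early tumours (top) and 8 DN1 libraries with the mean of 5 sorted populations; a DN1 library was left out of the DN1 mean it was set against. Tumours 1, 4, 5, 6 and 7 lie at 0.912 to 0.940 with DN1, while tumour 2 lies nearest DN3 and tumour 3 nearest DN4.

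The stage genes followed this split (marker levels for the stages are in CPM scaled over all RERT2 D/AAA libraries). Nkg7, a granule protein of cytotoxic and natural killer lymphocytes, had 3185, 2984, 1302, 2664 and 2959.9 CPM in tumours 1, 4, 5, 6 and 7 and 74.5 and 59.1 CPM in tumours 2 and 3, against 1476 to 2842 CPM in DN1. Zbtb16, the transcription factor PLZF of NKT cells, had 73.3, 64.2, 41.3, 43.3 and 38.9 CPM in the same 5 tumours and 0 and 9.99 CPM in tumours 2 and 3, against 36.4 to 108 CPM in DN1. Tumours 2 and 3 were below every DN1 library for both genes. The other 5 tumours were within the DN1 range for Zbtb16, and for Nkg7 tumour 5 was below it and tumours 1, 4 and 7 above it.

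Tumour 2 carried the DN3 genes. Il2ra, the CD25 chain of the interleukin 2 receptor, was at 555 CPM, against 379.6 to 731 CPM in DN3 and at most 15.7 CPM in DN1. Ptcra, the pre-T cell receptor alpha chain, was at 474 CPM, against 470.1 to 824 CPM in DN3 and at most 12.8 CPM in DN1. Rag1, a subunit of the recombinase that rearranges receptor genes, was at 138 CPM, above the 43.6 to 88.2 CPM of DN3. The receptor Notch1, which drives T-lineage commitment, was at 674 CPM, inside the DN3 range of 300.0 to 876 CPM.

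Tumour 3 was near DN4 cells in most stage genes. Its Il2ra was at 12.2 CPM, inside the DN4 range of 2.89 to 18.1 CPM. Its Ptcra was at 138 CPM, inside the DN4 range of 56.3 to 170.5 CPM, and its Notch1 at 107 CPM was below the DN4 range of 145 to 422 CPM. Cd4 and Cd8a, the coreceptors of DP cells, stayed low in it at 10.2 and 42.6 CPM, against means of 1304 and 1871 CPM in the 11 DP libraries. Its red cell RNA set it apart as well: the globin genes held 2.29% of its counts, against at most 0.0708% in the other tumours and at most 0.314% in DN1. The part of this red cell RNA in the differences of tumour 3 was not tested.

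Proliferation separated the same tumours. Mki67, a marker of cycling cells, had 317 and 374 CPM in tumours 2 and 3, against 8.21 to 49.8 CPM in DN1. In tumours 1, 4, 5, 6 and 7 it was at 23.1, 38.9, 13.7, 3.27 and 20.5 CPM, none above the DN1 range. Non-tumoral DN3 and DN4 cells had 169.9 to 290.1 and 183 to 342 CPM of Mki67. Tumour 2 was above that DN3 range and tumour 3 above that DN4 range. Of the 29 mitotic and spindle checkpoint genes tested, 29 were above all 8 DN1 libraries in tumour 2 and 29 in tumour 3, against 0 to 6 in each of the other 5. For all 11610 genes tested, 25.2% and 26.3% were above all DN1 libraries in tumours 2 and 3, and 11.998% to 15.8% in the others. The summed level of the list was 4585 and 6676 CPM in tumours 2 and 3 and 391 to 743 CPM in the other tumours, against 440.3 to 858 CPM in DN1. The sum in tumours 1, 4, 5, 6 and 7, though labelled as lymphoma, was below that of the highest DN1 library.

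**Figure D2:**
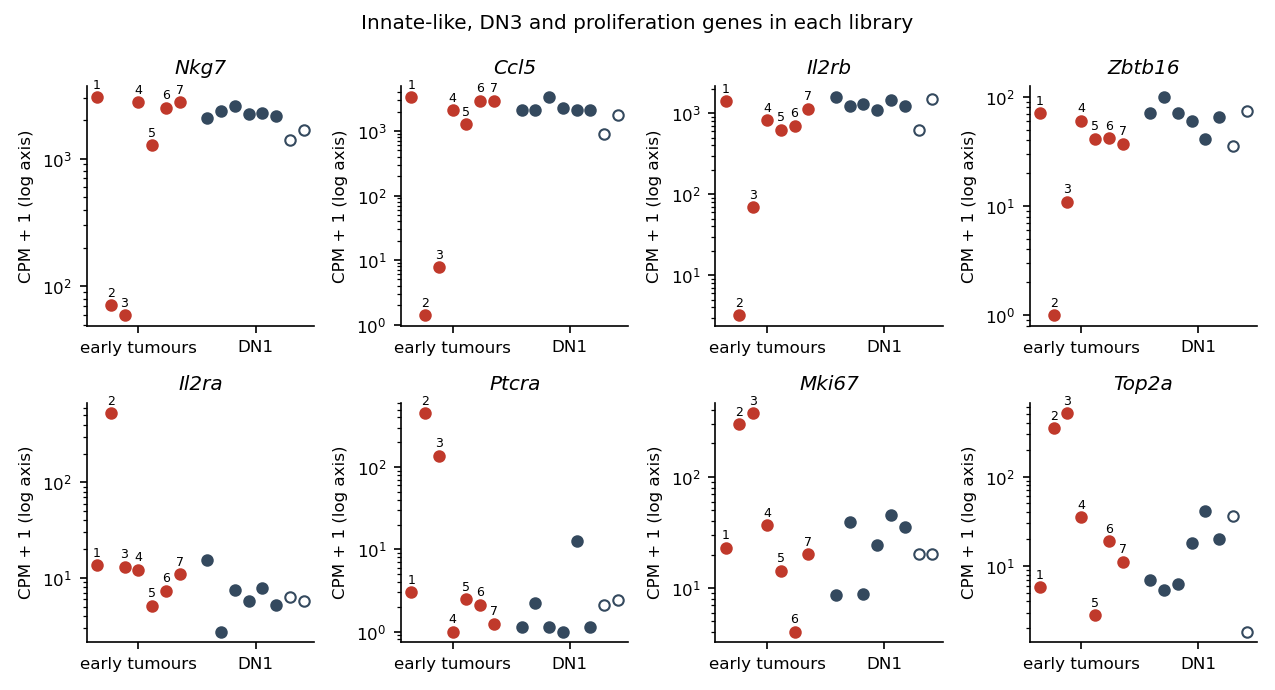
CPM + 1 (log axis) of 8 genes in the 7 early tumours (red, numbered) and 8 DN1 libraries (dark; open circles are replicates 7 and 9, whose depth matched the tumours). Tumours 2 and 3 lie below DN1 for Nkg7, Ccl5, Il2rb and Zbtb16 and above it for Ptcra, Mki67 and Top2a, and tumour 2 alone for Il2ra.

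Over all 7 tumours no member of the 31 lists passed edgeR's quasi-likelihood test at adjusted p under 0.05 (0 of 439 genes). At unadjusted p under 0.05 there were 101 of them, against 2147 of all 11610 genes tested. DESeq2 called 48 of them higher and 4 lower, against 447 and 250 of all genes, and limma voom with quality weights called 1 higher and 5 lower, against 103 and 88. The median log2 difference was 2.26 for the mitotic list and 1.54 for the 25 DNA replication genes tested, against -0.01 for all genes. Without tumours 2 and 3 these medians were -0.51 and -0.08, so the positive medians rested on those 2 libraries. The 14 double positive genes tested had a median of 2.01 over all tumours and 0.17 without those 2. Dntt, the enzyme that adds bases at receptor joints, had 13.2, 1653, 799, 7.82, 1.49, 8.35 and 6.05 CPM in tumours 1 to 7, against 4.48 to 30.3 CPM in DN1 (log2 difference 4.83 ± 1.34, edgeR adjusted p 0.0952). Cxcr6, a chemokine receptor of NKT and other innate-like T cells (chromosome 9, 123806475 to 123811760), had 1685, 1842, 1336, 1818 and 1729.8 CPM in tumours 1, 4, 5, 6 and 7 and 0.405 and 27.4 CPM in tumours 2 and 3, against 833 to 1137 CPM in DN1. Those 5 tumours lay above all 8 DN1 libraries, and without tumours 2 and 3 the difference was 0.73 ± 0.12 (SE, log2) with an edgeR adjusted p of 0.0190, one of 7 genes higher in that comparison (0.058% of the genes tested). Over all 7 tumours the groups overlapped (edgeR adjusted p 0.910). Cxcr6 did not stand for its list. Without tumours 2 and 3, 11 of the 20 NKT and innate-like genes were positive. Their median was 0.16, against -0.02 for all genes. The summed level of the list overlapped, at 5288.5 to 8311 CPM in those 5 tumours, against 5066 to 7092 CPM in DN1. Of the 10 genes that passed without tumours 2 and 3, 8 also passed over all 7, and the others were Cxcr6 and Atg2a, an autophagy protein. Those genes are 0.0829% of the genes tested there, with 0.0249% lower. The 5 tumours lay above all DN1 libraries, as for Cxcr6, in 0.821% of genes, and below all of them, as for Atg2a, in 0.34%. Atg2a had 24.6, 11.55, 2.81, 19.3, 36.8, 25.3 and 31.2 CPM in tumours 1 to 7, against 42.9 to 82.6 CPM in DN1 (edgeR adjusted p 0.0655 over all tumours and 0.0447 without tumours 2 and 3).

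Over all 7 tumours 20 genes were higher and 7 lower than in DN1 at adjusted p under 0.05, which is 0.172% and 0.0603% of the 11610 genes tested (0.233% together). DESeq2 called 447 higher and 250 lower and limma voom 103 higher and 88 lower (higher in 0.887% and lower in 0.758% of the genes tested), each including all 27. Among the 20 higher genes were 6 of the ribosomal protein genes. Of 81 ribosomal protein genes tested, a list taken by symbol after the values were seen, 6 were higher (Rps27a, Rpl23, Rpl15, Rpl24, Rpl36a and Rpl14) and 0 lower. The list had a median log2 difference of 0.35 (range -0.33 to 1.16), with 66 of 81 positive. DESeq2 called 30 and limma voom 19 of them higher, and none lower. In 18 of the 81, all 7 tumours stood above all 8 DN1 libraries, the pattern of 0.508% of all genes tested. The summed level of the list overlapped between the groups, at 44679 to 56170 CPM in the tumours, against 26455 to 54122 CPM in DN1.

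Rps27a, which encodes a small-subunit protein fused to ubiquitin (chromosome 11, 29545846 to 29548109), had 472, 629.6, 518, 479.7, 503, 432 and 383 CPM in tumours 1 to 7, against 185, 249, 264, 183, 174, 197, 306 and 188 CPM in DN1 replicates 1 to 7 and 9. No tumour overlapped a DN1 library, and the difference was 1.16 ± 0.16 (SE) on the log2 scale, with an edgeR adjusted p of 0.00566. Rpl23, a large-subunit protein, had 339, 301, 261, 378, 321, 357 and 269.7 CPM in the tumours, against 161, 162, 179.6, 134, 132, 151, 199 and 169 CPM in DN1. Here too all tumours were above all DN1 libraries, with a difference of 0.98 ± 0.14 (SE) on the log2 scale, with an edgeR adjusted p of 0.00566. Without tumours 2 and 3, 3 of the 6 ribosomal protein genes passed: Rps27a, Rpl23 and Rpl14 (edgeR adjusted p 0.00889, 0.00242 and 0.0404). Rpl15, Rpl24 and Rpl36a did not (edgeR adjusted p 0.0671, 0.0721 and 0.0721). Rpl15 had a lowest, median and highest level of 224, 344 and 539 CPM in the 7 tumours, against 115, 183 and 212 CPM in the 8 DN1 libraries, a difference of 1.07 ± 0.19 (SE) on the log2 scale, with an edgeR adjusted p of 0.0441. Rpl14, Rpl24 and Rpl36a rose by 0.69, 0.84 and 0.79 on the log2 scale, also with no overlap between the groups. Eif3e, a subunit of the translation initiation factor eIF3, had a lowest, median and highest level of 204, 256 and 337 CPM in the 7 tumours, against 76.4, 127 and 189.6 CPM in the 8 DN1 libraries, a difference of 1.08 ± 0.19 (SE) on the log2 scale, with an edgeR adjusted p of 0.0364. Fcf1 and Brix1, which act in assembling ribosomal subunits in the nucleolus, rose by 0.94 and 1.06, Brix1 with some overlap between the groups. Eif3e, Fcf1 and Brix1 did not pass without tumours 2 and 3 (edgeR adjusted p 0.0558, 0.0572 and 0.1004). The list of 26 nucleolar and ribosome biogenesis genes tested had 0 calls by edgeR, 8 unadjusted p under 0.05 and 6 higher by DESeq2, where all 11610 genes had 2147 and 447. Its median was 0.33, and -0.05 without tumours 2 and 3.

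Cox6c, a subunit of cytochrome c oxidase, rose by 0.90 and Ndufb5, a subunit of complex I, by 0.81. They were 2 of 73 nuclear respiratory chain genes tested, a list taken by symbol like that of the ribosomal protein genes. Over all genes tested 0.172% were higher. The median of the list was 0.40, and without tumours 2 and 3 it was 0.14, with 0 members called. Hnrnpll, an RNA-binding protein that controls splicing of Ptprc (CD45) in lymphocytes, had a lowest, median and highest level of 48.2, 78.7 and 189 CPM in the 7 tumours, against 14.03, 31.8 and 41.1 CPM in the 8 DN1 libraries. Its difference was 1.68 ± 0.31 (SE) on the log2 scale, with an edgeR adjusted p of 0.0441, and tumours 2, 3 and 5 were the highest. Vrk1, a kinase of chromatin and the cell cycle, rose by 0.83, and Tmem184c, a membrane protein, by 1.25. Without tumours 2 and 3 Cox6c, Ndufb5, Hnrnpll, Vrk1 and Tmem184c did not pass (edgeR adjusted p 0.0572, 0.1004, 0.0747, 0.0837 and 0.0921). Rpl17-ps8, Rpl9-ps6, Rpl23a-ps3 and Gm13509 also passed over all 7 tumours. Genes named or annotated as pseudogenes can share reads with their parent genes, so their levels are uncertain. Gm10273 and Gm8797, for which no role is given, passed as well and carry the same limit.

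The 5 ribosomal protein genes with a RefSeq promoter entry (build GRCm38.p6) are shown because these members rose together; Rps27a had no entry. Each window runs from 50 bases before to 20 bases after the annotated start site, on the strand of the gene. Messages of ribosomal proteins are known to start with a run of pyrimidines (the TOP motif), so capitals mark the first run of a C followed by at least 4 bases that are each C or T, beginning within 10 bases before to 20 after the start site, searched on the strand of the gene alone. Rpl23 and Rpl24 held no such run in this window.
Rpl14, chr9:120571467-120571536, plus strand: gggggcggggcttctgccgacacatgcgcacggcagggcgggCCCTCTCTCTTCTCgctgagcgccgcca
Rpl15, chr14:18270967-18271036, minus strand: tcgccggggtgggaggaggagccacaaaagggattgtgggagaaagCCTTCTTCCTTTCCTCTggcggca
Rpl36a, chrX:134585604-134585673, plus strand: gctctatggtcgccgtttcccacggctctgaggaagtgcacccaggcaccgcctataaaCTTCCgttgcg
Rpl23, chr11:97782420-97782489, minus strand: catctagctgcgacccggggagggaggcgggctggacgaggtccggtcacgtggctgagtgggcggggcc
Rpl24, chr16:55966225-55966294, plus strand: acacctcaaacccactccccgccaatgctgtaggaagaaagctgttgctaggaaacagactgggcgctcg
Such a run was present in 40 of 64 ribosomal protein genes with an entry (62.5%), against 35.8% of all 27025 genes with one, a description of the annotated sequence that was not tested against the levels.

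The 7 lower genes were members of none of the lists. Rnf44, a RING finger protein (chromosome 13, 54679399 to 54693907), had a lowest, median and highest level of 5.62, 14.3 and 18.2 CPM in the 7 tumours, against 24.0, 40.0 and 59.7 CPM in the 8 DN1 libraries, a difference of -1.63 ± 0.28 (SE) on the log2 scale, with an edgeR adjusted p of 0.0364. Here all 7 tumours were below all 8 DN1 libraries, which held for 0.189% of all genes tested. Mknk2, a kinase that phosphorylates the cap-binding factor eIF4E, had a lowest, median and highest level of 26.4, 58.1 and 78.1 CPM in the 7 tumours, against 86.5, 130.5 and 213 CPM in the 8 DN1 libraries, a difference of -1.25 ± 0.25 (SE) on the log2 scale, with an edgeR adjusted p of 0.0482. Stk11ip, which binds the kinase Stk11 (Lkb1), fell by 1.05 on the log2 scale. Neither gene had overlap between the groups. Mgat1, an enzyme of N-glycan synthesis, fell by 1.12 and Fam193b by 1.21, with some overlap between the groups. Without tumours 2 and 3 Rnf44 passed (edgeR adjusted p 0.0447). Mknk2, Stk11ip, Mgat1 and Fam193b did not pass there (edgeR adjusted p 0.0721, 0.0825, 0.0871 and 0.0802). The pseudogene Gm28661 also passed over all 7 tumours, with the same limit as the pseudogenes above.

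**Figure D3:**
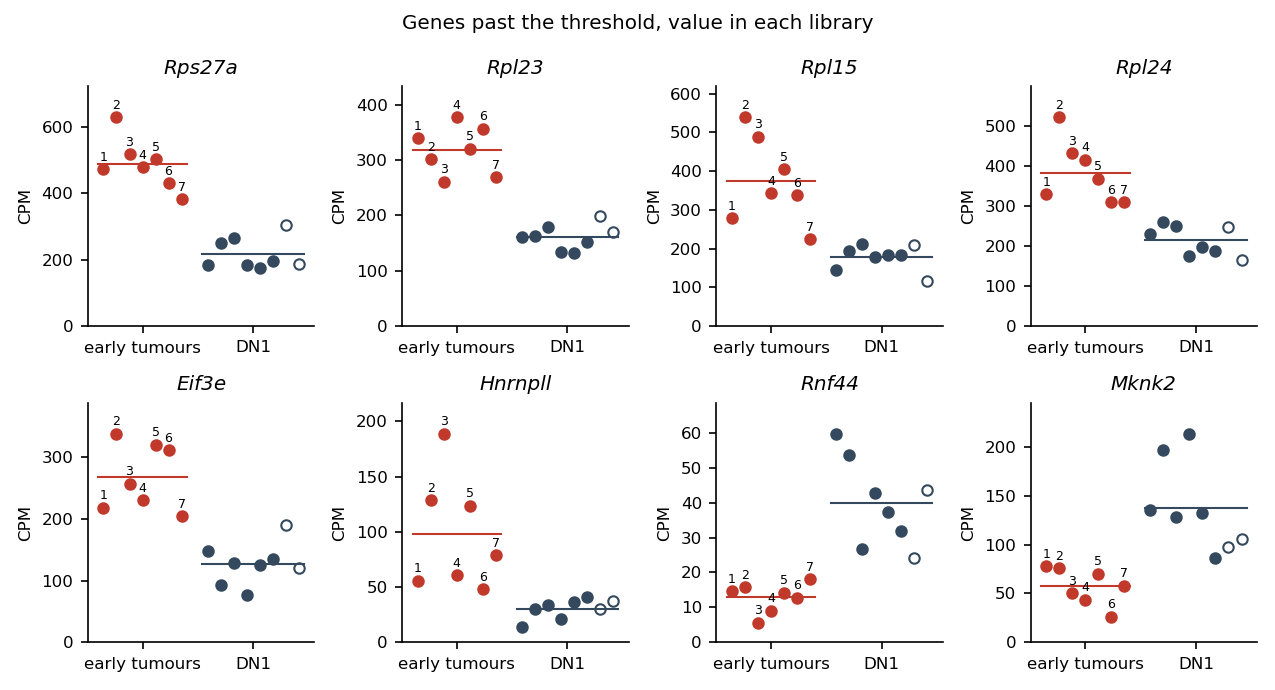
CPM (axis from 0) of 8 genes past the threshold in the 7 early tumours (red, numbered) and 8 DN1 libraries (dark; open circles are replicates 7 and 9); lines are group means. In all 8 genes no tumour overlaps a DN1 library, DN1 replicates 7 and 9 included, as in 22 of the 27 called genes.

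How many genes passed depended on the libraries. Leaving out tumour 1 gave 98 higher and 65 lower genes, leaving out tumour 7 gave 62 and 22, and leaving out DN1 replicate 7 gave 70 and 52, while leaving out any other library gave 3 to 6 higher and 0 to 2 lower. Against DN1 replicates 7 and 9 alone, which match the tumours' depth, no gene passed (638 at unadjusted p under 0.05). That fit had 2 reference libraries, so the absence of calls cannot tell depth from the small number of libraries. Of the 27 called genes, 24 had no overlap with those 2, and 22 had none with any of the 8. All 8 DN1 libraries were in the fit that called these genes, so the counts are no separate check on depth. Of all 11610 genes, 436 had every tumour above replicates 7 and 9 and 437 had every tumour below. Against replicates 7 and 9 the ribosomal protein genes had a median log2 difference of 0.70, with 80 of 81 positive. Their summed level was the lowest of all libraries in these replicates, at 35180 and 26455 CPM. The other DN1 libraries had 40539 to 54122 CPM and the tumours 44679 to 56170 CPM, so those ranges overlapped. Across genes, the tumour minus DN1 difference had a Spearman correlation of -0.36 with transcript GC content and -0.10 with transcript length (11584 genes, a description). Against DN1 replicates 7 and 9 these were -0.04 and -0.27, and ribosomal protein transcripts are short. For replicates 7 and 9 minus the other 6 DN1 libraries they were -0.31 and 0.37. These 2 replicates thus leaned to longer transcripts within DN1. The part of GC content, length or depth in these calls was not tested.

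RNA of other cell types varied between libraries without a difference that passed the test. The B cell and granulocyte genes leaned lower: 0 of 13 and 0 of 7 had a positive log2 difference, with medians of -1.36 and -1.43. Without tumours 2 and 3 these counts were the same and the medians -0.87 and -0.94. The dendritic cell, macrophage and monocyte, and stromal and epithelial lists had 4 of 14, 4 of 13 and 2 of 3 positive. The summed level of the B cell list was 433 to 4085 CPM in the tumours, against 720.4 to 10279.7 CPM in DN1, and 0 of 13 members tested passed edgeR (1 at unadjusted p under 0.05, 0 by DESeq2). Cd79a, a B cell receptor component, had a lowest, median and highest level of 0, 249.9 and 674 CPM in the 7 tumours, against 84.0, 309.7 and 1853 CPM in the 8 DN1 libraries. Dendritic cell genes summed to 664 to 7956 CPM in the tumours, against 2136 to 22068 CPM in DN1. In both sums DN1 replicates 4 and 7 were the highest of all libraries. Granulocyte genes summed to 1928 CPM in tumour 4 and to 0 and 0.216 CPM in tumours 2 and 3, against 0 to 3304 CPM in DN1. Macrophage and monocyte genes summed to 11.9 to 1638 CPM in the tumours, against 384 to 2288 CPM in DN1, and stromal and epithelial genes to 27.7 to 97.6 CPM, against 9.95 to 161 CPM. In each of these 5 lists the highest tumour was below the highest DN1 library, and their part in the other differences was not tested.

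Other lists held single genes near the threshold. The immediate early genes, transcription factors and phosphatases that signals switch on within minutes, had 2 of 16 positive differences and a median of -0.73, and -0.49 without tumours 2 and 3. Jund, an AP-1 subunit, had 214, 47.0, 46.2, 78.7, 146, 139.7 and 124 CPM in tumours 1 to 7, against 419, 342, 301, 372, 444, 289.8, 160.0 and 127 CPM in DN1 replicates 1 to 7 and 9. Most tumours were below most DN1 libraries, but tumours 1, 5 and 6 overlapped the DN1 range, in which replicates 7 and 9 were lowest, and the difference of -1.43 ± 0.35 (SE) on the log2 scale, with an edgeR adjusted p of 0.0708, did not pass. The constant gene Tcrg-C1 of the gamma receptor chain had 332, 699, 263, 314, 388, 291 and 225 CPM in tumours 1 to 7, against 151 to 237 CPM in DN1. Only tumour 7 was inside the DN1 range, and the difference was 0.82 ± 0.21 (SE) on the log2 scale, with an edgeR adjusted p of 0.0807. Of 14 gamma delta genes tested, 3 were higher and 2 lower at edgeR unadjusted p under 0.05, against 1236 and 911 of all 11610. Their median was 0.31, and 0.06 without tumours 2 and 3. The delta constant gene Trdc, scaled over all RERT2 D/AAA libraries, had 52.6 to 200 CPM in DN1. Tumours 5 and 6 were below this at 31.6 and 41.3 CPM, and tumours 1 and 3 above at 219 and 260 CPM. Tcf12, an E protein that acts in early T cells, had 375 and 197 CPM in tumours 2 and 3 and 49.9 to 77.3 CPM in the other tumours, against 32.3 to 75.6 CPM in DN1. Id2, an inhibitor of E proteins needed by innate lymphocytes, ran the other way, with 11.8 and 27.7 CPM in tumours 2 and 3 and 914 to 1255 CPM in the other tumours, against 554 to 1162 CPM in DN1.

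Tumour 5 differed from the other tumours that resembled DN1. Its genes with the largest gap to all other 14 libraries, chosen after the values were seen, included cytokine receptors of innate lymphocytes. Il17rb, the interleukin 25 receptor, was at 494 CPM, against at most 79.01 CPM in the other tumours and 12.5 CPM in DN1. Il1rl1, the interleukin 33 receptor ST2, was at 161 CPM, against at most 1.95 CPM in the other tumours and 4.2003 CPM in DN1. Both are known from type 2 innate lymphoid cells. Il5 and Il13, cytokines of those cells, were at 0 CPM in tumour 5, and 3 of 8 innate lymphoid cell genes tested were above all DN1 libraries in it, as many as in tumours 2 and 3, where 14.9% of all genes were above in tumour 5. Eml1, a microtubule-binding protein, was at 115 CPM, against at most 0.254 CPM in the other tumours and 0.850 CPM in DN1, and Ly6c1, a surface antigen, at 504 CPM, against at most 47.2 CPM in the other tumours and 13.9 CPM in DN1. Ccr9, a chemokine receptor of thymocytes, was at 451 CPM, against 6.88 to 62.2 CPM in DN1, and Cd8b1 at 80.2 CPM, against 0.995 to 13.3 CPM in DN1. A higher Cd8b1 level was not particular to tumour 5. Scaled over all RERT2 D/AAA libraries, Cd8b1 was at 82.0 CPM in tumour 5 and at most 14.3 CPM in DN1. On that scale tumours 3, 4 and 1 had 67.1, 26.4 and 18.9 CPM, and tumours 2, 6 and 7 had 4.16 to 6.22 CPM. Sall3 and Kcnma1, a transcription factor and a potassium channel, were at 26.7 and 22.3 CPM and at 0 CPM in the other 14 libraries. Of 19 cytotoxic and natural killer genes, 9 were below all 8 DN1 libraries in tumour 5, against 0 or 1 in each of tumours 1, 4, 6 and 7. For all genes tested the share below was 13.5% in tumour 5. With 1 library these values have no replicate check.

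Tumour 7 stood out by interferon-inducible genes. Of 22 such genes tested, 21 were above all 8 DN1 libraries in tumour 7, against 0 to 6 in each of the other 6 tumours. Over all genes tested, 11.998% were above all DN1 libraries in tumour 7. Their summed level was 5820.3 CPM, against 2409.7 to 3269 CPM in DN1. Ifit1, which binds viral RNA caps, was at 336 CPM, against at most 108 CPM in the other tumours and 95.8 CPM in DN1. Ifit3 was at 736 CPM, against at most 291 CPM in the other tumours and 269 CPM in DN1, and Mx1, a GTPase against viruses, at 148 CPM, against at most 70.7 CPM in the other tumours and 56.3 CPM in DN1. Of the MHC class I presentation genes, 11 of 17 were above all DN1 libraries in tumour 7. In tumours 2 and 3, 18 and 16 of the interferon-inducible genes were below all DN1 libraries, as were 30.4% and 30.2% of all genes tested. Over all 7 tumours the list had a median log2 difference of -0.04 and no member passed (edgeR; 0 at unadjusted p under 0.05, 0 by DESeq2). Leaving out tumours 2 and 3, the median was 0.30, with 18 of 22 positive, 0 called and 5 at unadjusted p under 0.05.

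Receptor gene use gave a second view of the split. Trbv13-2, a beta chain segment typical of NKT cells, held 34.0, 8.74, 8.90, 36.2, 16.3, 36.5 and 37.2% of Trbv counts in tumours 1 to 7, against 33.1% to 40.3% in DN1. Tumours 2, 3 and 5 were below the DN1 range and the other 4 inside it. The mean was 25.4% ± 13.5 (SD, n = 7) in tumours and 36.2% ± 2.45 (SD, n = 8) in DN1 (2-sided exact permutation p = 0.0426, 0.0639 adjusted over 3 receptor measures). Without tumours 2 and 3 the exact permutation p was 0.228. Trav11 and its near-identical copy Trav11d, between which reads cannot be divided with certainty, together held 56.5, 0, 0.279, 60.6, 49.1, 64.3 and 64.9% of Trav counts in tumours 1 to 7, against 59.1% to 71.2% in DN1. They were at or near 0 in tumours 2 and 3 and on top of the alpha segments in the other 5. The mean was 42.2% ± 29.2 in tumours (SD, n = 7) and 65.0% ± 4.25 in DN1 (SD, n = 8; 2-sided exact permutation p = 0.00839), a sum chosen after the values were seen. Leaving out tumours 2 and 3, the tumour mean was 59.1% ± 6.503 and the exact permutation p 0.0668. For Trav11 alone the exact permutation p was 0.0267 (0.0639 adjusted over the 3 measures), and 0.122 without tumours 2 and 3. Tumour 6 had all of these counts on Trav11d. Traj18, the joining segment of the NKT receptor, had 24.4, 0, 0, 28.1, 20.8, 28.1 and 26.9 CPM in tumours 1 to 7, against 16.5 to 31.7 CPM in DN1.

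Tumour 5 was the only tumour in which another single segment dominated. Trbv19 held 51.4% of its 2485 Trbv counts (95% exact binomial interval 49.4% to 53.4%, counting error only), against 1.08% to 6.93% in the other tumours and 1.26% to 3.58% in DN1. Its top segment was thus Trbv19 while every DN1 library and tumours 1, 4, 6 and 7 had Trbv13-2 on top. In tumours 2 and 3 no segment was above 14.8%, with Trbv12-2 and Trbv5 on top. The share of the top segment averaged 32.0% ± 13.4 (SD, n = 7) in tumours and 36.2% ± 2.45 (SD, n = 8) in DN1, a difference smaller than the spread among tumours (2-sided exact permutation p = 0.341). A gene table gives segments and not joined receptors, so cells sharing a segment and 1 expanded clone cannot be told apart.

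**Figure D4:**
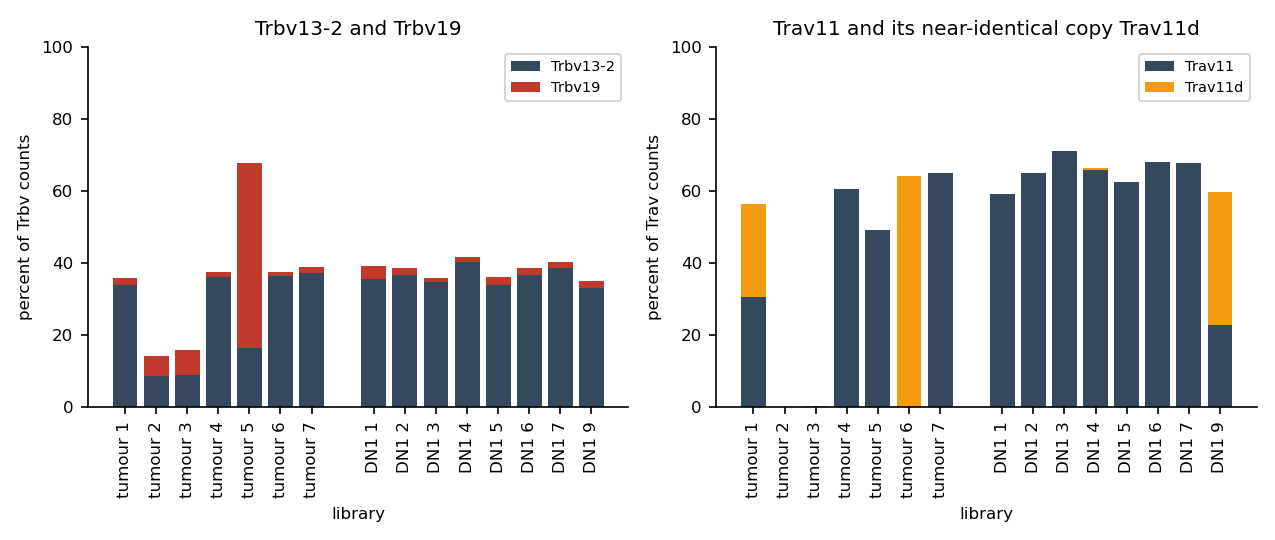
Stacked bars (axes from 0) of the percent of Trbv counts on Trbv13-2 and Trbv19 (left) and of Trav counts on Trav11 and Trav11d (right) in each early tumour and DN1 library. Trbv19 reaches 51.4% in tumour 5, and Trav11 with Trav11d is at or near 0 in tumours 2 and 3.

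The mean expression by chromosome also set tumour 5 apart. The chromosome score is the mean over a chromosome's genes (at least 10 CPM, receptor segments left out) of log2 CPM minus the DN1 mean. Tumour 5 scored 0.39 on chromosome 15 (372 genes) and 0.22 on chromosome 14 (321 genes), against -0.06 to 0.08 and -0.07 to 0.04 in the DN1 libraries. The other 6 tumours scored -0.43 to -0.06 on chromosome 15, all below 0, and on chromosome 14 tumours 4 and 6 were also above the DN1 range, at 0.05 and 0.12. In tumour 5, 125 of the 372 chromosome 15 genes (33.6%) were above all 8 DN1 libraries, against 14.4% of the genes of all chromosomes. The higher scores ran along chromosome 15: in 4 successive blocks of equal gene number tumour 5 scored 0.63, 0.22, 0.26 and 0.46, each above the highest DN1 library (0.13, 0.11, 0.14 and 0.10). On chromosome 14 the blocks scored 0.37, 0.27, 0.06 and 0.19, with the third inside the DN1 range. Myc lies on chromosome 15, and its level in tumour 5, 177 CPM, was inside the DN1 range. A score is RNA and not DNA copy number, which was not measured.

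Across the groups, 9 of 19 autosomes had an adjusted p under 0.05 (2-sided exact permutation, Benjamini-Hochberg over 19), all lower in the tumours and led by chromosome 7 (mean score -0.32 in tumours, set to 0 in DN1, exact permutation adjusted p = 0.00295). This direction depended on the centring: with each library centred on its median autosome, added after the values were seen, 4 autosomes were higher (3, 12, 14 and 18) and 2 lower (7 and 17). Without tumours 2 and 3, 9 were lower and chromosome 14 was higher, by 0.08 (exact permutation adjusted p = 0.0232). Tumours 2 and 3 scored below 0 on every autosome against DN1. Against the means of the populations they resembled, tumour 2 scored -0.11 to 0.11 (DN3) and tumour 3 -0.16 to 0.04 (DN4), close to 0. Tumour 2 was highest there on chromosome 14, at 0.11, against -0.04 to 0.04 in the 5 DN3 libraries. It was also above the DN3 range on chromosomes 1, 3 and 18 (0.07, 0.04 and 0.07) and below it on chromosome 5 (-0.09). Against DN1 replicates 7 and 9 alone 0 autosomes passed, in a comparison with 36 possible splits.

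**Figure D5:**
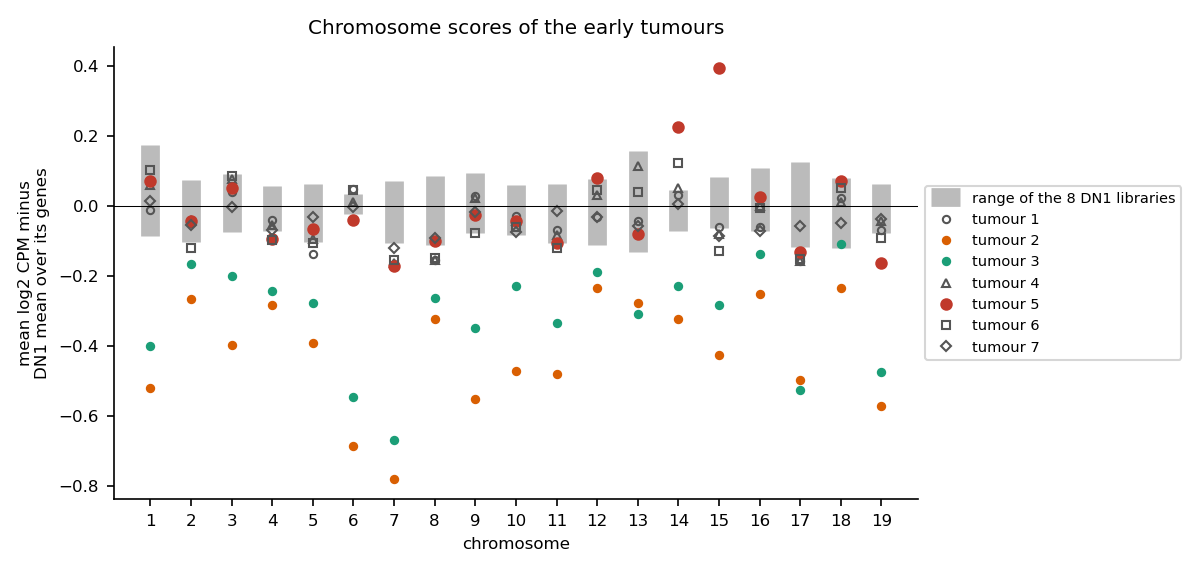
Chromosome scores (mean log2 CPM minus the DN1 mean over the genes of a chromosome) of the 7 early tumours on the 19 autosomes; grey bars span the 8 DN1 libraries. Tumour 5 reaches 0.39 on chromosome 15 and 0.22 on chromosome 14, while tumours 2 and 3 lie below 0 on every autosome.

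The spread among tumours was larger than among DN1 libraries only with tumours 2 and 3 counted. The median over 11610 genes of the SD of log2 CPM was 0.727 in the 7 tumours and 0.502 in the tumours without 2 and 3, against 0.505 in the 8 DN1 libraries. The SD was larger in tumours for 72.5% of genes, and for 48.9% without tumours 2 and 3. Among the 12 genes of at least 50 CPM with the largest SD in tumours, Ly6c2 was first, at 0.405 and 0.648 CPM in tumours 2 and 3 and 2144 to 5292 CPM in the other tumours, against 1189 to 4390.2 CPM in DN1. The interleukin 18 receptor genes Il18r1 and Il18rap, the natural killer receptors Klrk1 and Klrb1c, the chemokine Ccl5 and the chemokine receptor Cxcr3 shared this pattern, with at most 6.70 CPM in tumours 2 and 3. Counted gene by gene, 22.9% and 22.9% of 8789 genes lay over 2-fold outside the DN1 range in tumours 2 and 3, against 1.27% to 1.95% in the other tumours. A DN1 library set against the other 7 had 0.262% to 3.98%.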

How the data were processed

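The authors deposited a table of RSEM expected counts (estimated counts per gene; all values were whole numbers), made per the submitters' processing notes with FastQC, STAR 2.5.3a and RSEM 1.3.0 on GRCm38. Neither the strand setting nor the annotation is given in the sources used here. Names came from GENCODE M21 (50462 of 50686 genes). The authors' second table was not used here.

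Genes kept by filterByExpr were TMM-scaled and tested with edgeR 4.0.16 (quasi-likelihood, robust, 2-sided, adjusted by Benjamini-Hochberg, threshold 0.05); SE is the log2 difference divided by the square root of F. On simulated data, 61.0% of 100 genes changed 4-fold and 10.0% of 100 changed 2-fold were recovered, with 2 false calls among 11610 genes. Counts were drawn separately for each gene and library from DN1 means, with the same change in every tumour. The simulation therefore does not cover tumours that differ from each other in many genes together. CPM used TMM-scaled totals, and log2 CPM a prior count of 2. DESeq2 1.42.0, limma 3.58.1 and the settings in the closing section were alternatives. Shares and chromosome scores were compared by exact permutation over libraries.

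Members, lists and tests were chosen with earlier results of these data known. Named genes were up to 15 per direction by fold change (past the threshold, averaging 5 CPM or more in a group, at least 6 tumours on 1 side of the DN1 median; no Xist, Tsix, Y-linked, receptor, mitochondrial or identifier-only genes), up to 4 per list by adjusted p (or 2 by level where none passed), Cdc20, Trp53, Myc, and the 12 genes of largest spread; others were chosen after their values were seen. A gene that met the rule is not reported here. No pair of libraries was near identical (chi-square per degree of freedom at least 23.7). The total counts limit precision; intervals cover counting error only.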

Additional observations from a re-analysis of the deposited data

Results flagged for a closer look

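In 66 groups of values (named genes, red cell and immunoglobulin shares, receptor shares, likeness and 2 chromosome scores), a library whose gap to its neighbour was large for the range of its group was looked for with Dixon's criterion, and 3 stood apart; chance flags about 1 group in 20. Tumour 3 held 2.29% globin counts among the tumours. DN1 replicate 1 held 0.314% globin counts among the DN1 libraries. DN1 replicate 9 had 22.8% of Trav counts on Trav11, and with Trav11d its share was 59.8%.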

How the results depend on the processing

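The count of 20 higher and 7 lower genes was 447 higher and 250 lower with DESeq2, 18 higher and 4 lower with RLE factors, 6 higher and 3 lower with no low-count filter, 103 higher and 88 lower with limma voom, 690 higher and 159 lower in 1 fit of all RERT2 D/AAA groups, 1 higher and 0 lower with the shallow DN1 replicate 8, 0 higher and 0 lower against DN1 replicates 7 and 9 alone and 27 higher and 50 lower against 6 control DN1 libraries. Leaving out 1 library gave 3 to 98 higher and 0 to 65 lower. With tumours 2 and 3 left out, added after seeing the data, it was 7 higher and 3 lower; 0 higher and 0 lower against DN1 replicates 7 and 9, 73 higher and 109 lower against control DN1, 135 higher and 203 lower with DESeq2, 60 higher and 35 lower with limma voom, and 3 to 9 higher and 0 to 5 lower with 1 further tumour left out. All 21 named called genes kept their direction under every setting. Most settings reused the libraries that the genes were called on, so the kept direction is no separate check. Of the 27 called genes, 1 also passed with DN1 replicate 8 included and 0 against DN1 replicates 7 and 9 alone. With 1 library left out, 3 to 27 of them passed. Cdc20 passed with DESeq2 (2.22) and in the fit of all groups (2.16), was 0.30 with limma voom, 1.32 to 2.38 with 1 library left out, -0.19 without tumours 2 and 3 against DN1 replicates 7 and 9, and -0.38 to 0.29 with a further tumour left out. Myc turned negative with limma voom (-0.20), with 1 library left out (range -0.069 to 0.18, below 0 without tumour 3), without tumours 2 and 3 (-0.26; control DN1 -0.38, DESeq2 -0.26, voom -0.26) and with a further tumour left out (-0.30 to -0.24). Autosomes past the threshold numbered 5 with genes of at least 1 CPM and 0 against DN1 replicates 7 and 9, 6 centred on each library's median (4 higher, 2 lower), 10 without tumours 2 and 3 (1 higher), and 8 to 10 with 1 tumour left out. The mean difference of chromosome 15 was -0.10, 0.0375 centred on each library's median chromosome and 0.00373 without tumours 2 and 3. The top Trbv share differed by -4.22 percentage points, 2.88 without tumours 2 and 3 and -7.46 to -1.16 with 1 tumour left out. The Trbv13-2 difference was -4.14 without tumours 2 and 3 and -12.7 to -7.998 with 1 left out, and the Trav11 difference -26.1 with at least 500 counts, -19.2 without tumours 2 and 3 and -36.9 to -26.1 with 1 left out. The number of tumours closest to DN1 was 5 under each alternative. The cause of these changes was not tested. No paired analysis was possible because the labels give no replicate numbers that pair tumours with DN1 libraries.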

Other observations

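Against the populations they resembled, tumours 2 and 3 differed in few genes. Of 8388 genes, tumour 2 had 23 over 2-fold above and 136 over 2-fold below the range of the 5 DN3 libraries, and tumour 3 had 5 above and 112 below that of the 6 DN4 libraries (of 8340). Bmp7, a secreted growth factor, was at 76.4 CPM, against 13.2 to 34.0 CPM in DN3, and Asns, which makes asparagine, at 38.9 CPM, against 1.06 to 17.1 CPM in DN3. In tumour 3 the interferon-inducible protease Usp18 was at 58.4 CPM, against 6.004 to 20.9 CPM in DN4, and the heat shock gene Hspa1b was at 12.2 CPM, against 60.1 to 539 CPM in DN4. The replication histone Hist1h2ai was above both populations, at 101 CPM, against 0 to 7.56 CPM in DN3 for tumour 2 and 103 CPM, against 4.002 to 37.4 CPM in DN4 for tumour 3. These genes were chosen after their values were seen, and 1 library each gives no replicate check.

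The remaining tumours had single genes of their own. Tumour 1 was highest for the natural killer receptor Ncr1 (289 CPM, against at most 145 CPM in DN1) and the chemokine receptor Cx3cr1 (194 CPM, against at most 100.03 CPM in DN1). Tumour 4 was highest for Siglech, a marker of plasmacytoid dendritic cells (138 CPM, against at most 56.1 CPM in DN1). Tumour 6 was highest for the transcription factor Klf6 (1040.0 CPM, against at most 511 CPM in DN1).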
